A study of Mus musculus with 12 samples.

Results

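Sclerostin and the other secreted Wnt antagonists were followed in RNA-Seq libraries of the mouse abdominal aorta. The 9 genes were chosen by name: Sost, Dkk2, Dkk3, Sfrp1, Sfrp2, Sfrp4, Sfrp5, Wif1 and Frzb. All 9 were found among the 55092 features of the table, and all 9 passed the filter for testing, a value of 1 FPKM or more in 3 or more libraries (FPKM counts fragments per kilobase of exon, scaled to the size of the library). Dkk2 passed it only with its CSA libraries. The choice was made when the loss of Sost transcripts in Ang II–infused CCN2SMCΔ aortas was already known. The comparisons that use those aortas are therefore described for the 9 genes without p-values, and the number of members called there stands beside the share of all genes as a description. P-values are given for them only in the other comparisons.

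The study asked what smooth muscle cell–derived (SMC-derived) CCN2, a matricellular signaling protein, does in abdominal aortic aneurysm. There were 4 groups of 3 male mice each: CCN2fl/fl with saline (CFS), CCN2SMCΔ with saline (CSS), CCN2fl/fl with Ang II (CFA) and CCN2SMCΔ with Ang II (CSA). CCN2SMCΔ mice carried floxed CCN2 alleles and Myh11–Cre-ERT2, a tamoxifen-inducible Cre driven in SMC, and CCN2fl/fl mice carried the floxed alleles without Cre. All mice, controls included, had received 5 doses of tamoxifen from 8 weeks of age and a 2-week washout. Osmotic minipumps then delivered saline or Ang II at 500 ng/kg/min for 7 days. The Cre acts in SMC while RNA came from the whole vessel wall, so cells that the Cre does not reach kept their CCN2 alleles. With this infusion the paper reports infrarenal aneurysms in nearly all CCN2SMCΔ mice, and mild ones at other sites in few controls. Whether each sequenced mouse had an aneurysm is not given in the sources used here. Differences between CSA and the other groups may thus include those between diseased and other tissue, and the part of aneurysm was not tested.

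Wnt proteins are secreted signals that bind Frizzled receptors together with the co-receptors LRP5 and LRP6, and in the canonical branch stabilize β-catenin, which then acts with TCF and LEF factors on target genes. Secreted antagonists act outside the cell at either end of this encounter. Sclerostin, the product of Sost, and the Dickkopf protein DKK2 bind the LRP co-receptors, whereas the secreted Frizzled-related proteins (Sfrp1, Sfrp2, Sfrp4, Sfrp5 and Frzb, which is also called Sfrp3) and WIF1 bind Wnt proteins themselves. Sclerostin is best known from osteocytes, where it restrains bone formation, and is also made by vascular SMC.

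Promoter sequences are shown for the gene that was lower by the widest margin in CSA aortas and for the antagonist whose promoter held a TCF and LEF motif. They span 250 bases before to 50 bases after the start site, are written 5′ to 3′ on the gene's strand and come from the RefSeq annotation of GRCm38.p6. The Sost promoter lies at chr11:101966966-101967265 on the minus strand. The Frzb promoter lies at chr2:80447347-80447646 on the minus strand, and its RefSeq start site is internal to the gene as GENCODE draws it. Capitals mark the TCF and LEF motif.
Sost: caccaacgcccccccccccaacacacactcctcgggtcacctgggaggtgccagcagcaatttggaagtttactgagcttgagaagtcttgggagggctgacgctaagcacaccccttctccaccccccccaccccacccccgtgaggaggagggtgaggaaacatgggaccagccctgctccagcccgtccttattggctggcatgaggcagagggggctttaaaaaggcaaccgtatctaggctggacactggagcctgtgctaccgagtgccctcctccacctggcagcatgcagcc
Frzb: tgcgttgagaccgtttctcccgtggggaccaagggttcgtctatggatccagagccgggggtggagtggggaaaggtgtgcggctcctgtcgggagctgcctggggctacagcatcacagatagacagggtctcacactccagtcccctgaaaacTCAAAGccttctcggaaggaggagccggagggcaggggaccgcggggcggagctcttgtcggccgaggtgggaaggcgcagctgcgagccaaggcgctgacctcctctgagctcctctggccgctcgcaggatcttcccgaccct
A promoter was found for 6 of the 9 genes, and those of Dkk3, Sfrp1 and Sfrp4 were not analysed here. Both strands were searched for 4 motifs, the CArG box that serum response factor binds in SMC genes, the TEAD motif CATTCC, the TCF and LEF motif CTTTGA and the TATA box TATAAA. The Sost promoter matched none of the 4, although a CArG box in the strict form searched is present in only 1.57% of 27025 promoters. Its GC content was 62.0%, against a median of 52.7% over all promoters, and it held 7 CpG, the same as the median of 7. The Frzb promoter held the TCF and LEF motif once, at -95 to -90 from the start site and in the reverse orientation (TCAAAG). That motif is found in 16.2% of all promoters. The Dkk2 promoter held a TATA box at -32 to -27 and the Wif1 promoter 1 on the opposite strand at -232 to -227, a motif present in 14.2% of promoters. The TEAD motif, present in 14.6%, was in none of the 6. These matches describe letters in the windows and were not tested as binding sites.

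The libraries held 14555477 to 23102704 recovered fragments per mouse. Ccn2, the targeted gene (chr10:24595442-24598683 on the plus strand), had an FPKM of 710, 1108 and 480.1 in CFS, 436, 640 and 587 in CSS, 1013, 1105 and 564 in CFA, and 255, 331 and 399 in CSA. The CSS and CFS ranges overlapped (log2 fold change -0.40 ± 0.34 SE, adjusted p = 1, limma with Benjamini-Hochberg adjustment), whereas every CSA library was below every CFA library (-1.41 ± 0.34, adjusted p = 0.00622). Of its exonic bases, 23.24% are shared with another annotated gene. Libraries CFS mouse 68 and CSS mouse 55 stood apart in skeletal muscle transcripts, with summed FPKM of 5 markers of 138 and 210 against 2.31 to 4.19 in the other 10 libraries. CSA mouse 03 lay 1.20 to 1.21 (root mean square log2 difference over the tested genes) from the other two CSA libraries, which lay 0.505 from each other.

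Sost transcripts were abundant in the aortas of CFS, CSS and CFA mice and scarce in those of CSA mice. Sost (ENSMUSG00000001494, chr11:101962458-101967015 on the minus strand, protein coding) had an FPKM of 168, 233 and 156 in CFS, 247, 275 and 333 in CSS, 340.2, 298 and 122 in CFA, and 9.32, 7.16 and 0.379 in CSA. The CSA libraries were lower than all the others, and CSA mouse 03 was far below its group. The counts behind the CSA values were 391, 314 and 12 fragments, against 5336 to 15310 in the other 9 libraries. The mean was 5.62 ± 4.67 (SD, n = 3) in CSA and 253 ± 116 in CFA, a ratio of means of 45.0. The fitted log2 difference, which compares means of log values and is pulled by CSA mouse 03, was -6.17 ± 0.90 (SE) or 72.2-fold. Without CSA mouse 03 the log2 difference was -4.80. Set against CSS, whose mean was 285 ± 43.8, the difference was -6.47 ± 0.90, and -5.10 without that mouse. In these bulk libraries, fewer cells of a type and less RNA per cell cannot be told apart.

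**Figure D1:**
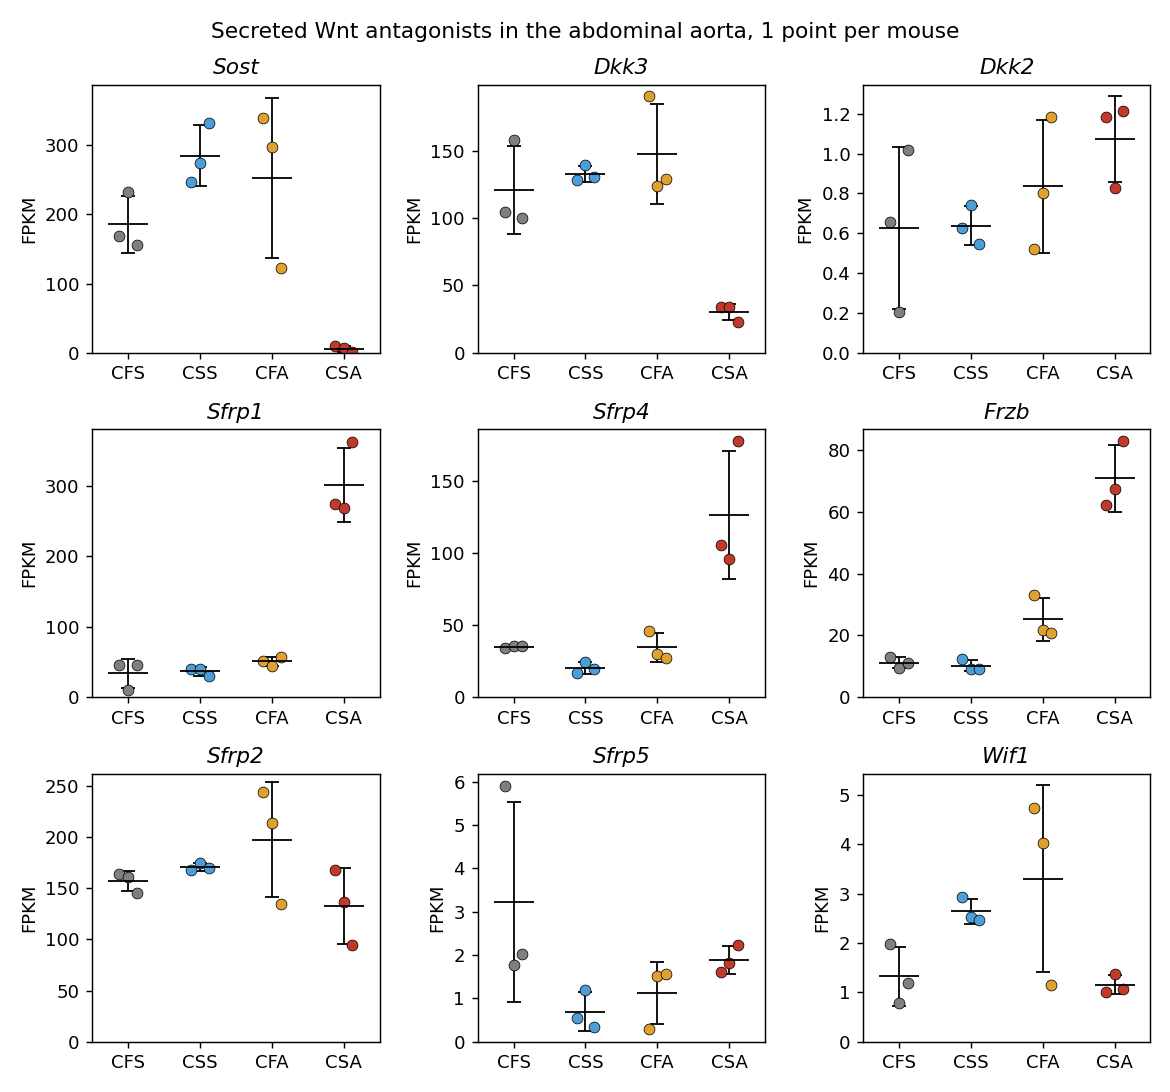
FPKM of each of the 9 antagonists by group, 1 point per mouse, with a horizontal line at the mean and bars of ± 1 SD (n = 3). Sost in CSA lies between 0.379 and 9.32 FPKM, below all other libraries, while all 3 CSA values of Sfrp1, Sfrp4 and Frzb lie above every other library.

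Dkk3, a divergent Dickkopf family protein, was the other antagonist that was markedly lower in CSA. Dkk3 (chr7:112116017-112159057 on the minus strand) had an FPKM of 104, 158 and 99.7 in CFS, 128, 139.6 and 130.1 in CSS, 190.4, 124 and 129 in CFA, and 33.6, 33.7 and 23.0 in CSA. The 3 CSA values sat below all 9 others, which overlapped freely between groups. The mean was 30.1 ± 6.14 in CSA and 148 ± 37.2 in CFA, a log2 difference of -2.28 ± 0.23 (SE), 4.87-fold. Against CSS the difference was -2.16 ± 0.23.

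3 Wnt-binding antagonists were higher in CSA than in any other group. Sfrp1 (chr8:23411502-23449632 on the plus strand), a secreted Frizzled-related protein, had an FPKM of 46.0, 10.3 and 44.9 in CFS, 39.5, 40.7 and 29.8 in CSS, 51.4, 44.3 and 57.1 in CFA, and 274, 268 and 362 in CSA. The low CFS value came from mouse 69, whose summed FPKM of 5 endothelial markers, 82.4, was also below the 352 and 353 of the other CFS libraries; their part in the Sfrp1 value was not tested. The log2 difference between CSA and CFA was 2.56 ± 0.46 (SE), 5.88-fold, and between CSA and CSS 3.04 ± 0.46, 8.20-fold. The mean was 50.9 ± 6.43 (SD, n = 3) in CFA and 301 ± 52.8 in CSA, the highest level of the 9 antagonists in CSA aortas.

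Sfrp4 (chr13:19623104-19632994 on the plus strand), a matrix-associated member of the same family, showed its lowest values in CSS and its highest in CSA. It had an FPKM of 34.2, 35.2 and 35.7 in CFS, 16.7, 24.6 and 19.4 in CSS, 46.1, 29.8 and 27.4 in CFA, and 105.5, 95.6 and 177 in CSA. The CSA values stood clear of all others, and the CSS values stood clear of CFS on the other side. The log2 difference was 1.85 ± 0.26 (SE) between CSA and CFA and 2.60 ± 0.26 between CSA and CSS.

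Frzb (chr2:80411970-80447625 on the minus strand), a Wnt-binding Frizzled-related protein, was ordered by treatment and then by genotype. Its FPKM was 12.9, 9.51 and 11.1 in CFS, 12.4, 9.28 and 9.10 in CSS, 33.2, 21.7 and 20.7 in CFA, and 62.5, 67.4 and 83.1 in CSA. The saline groups overlapped each other, both Ang II groups lay above them, and CSA lay above CFA. The log2 difference between CSA and CFA was 1.51 ± 0.21 (SE), just above the limit of 1.5 used for a call, and it was 1.48 with a pseudocount of 1, 1.42 without CFA mouse 72, 1.39 without CFA mouse 74 and 1.39 without CSA mouse 03. Between CSA and CSS the difference was 2.78 ± 0.21, 6.88-fold. Between CSA and CFA, the members nearest that limit were Frzb at 1.51 just inside and Wif1 at -1.23 just outside.

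The remaining members differed less between CSA and CFA. Sfrp2 (chr3:83766321-83774316 on the plus strand), an abundant Frizzled-related protein of stromal cells, had an FPKM of 164, 161 and 146 in CFS, 168, 175 and 169.7 in CSS, 244, 214 and 135 in CFA, and 168, 136 and 94.2 in CSA, and of its exonic bases 16.12% are shared with another annotated gene. The CSA and CFA ranges overlapped, at a log2 difference of -0.57 ± 0.24 (SE), with a range of -0.82 to -0.34 when each mouse was left out. Wif1 (chr10:121033960-121100650 on the plus strand), Wnt inhibitory factor 1, was at 1.98, 0.793 and 1.19 FPKM in CFS, 2.93, 2.53 and 2.46 in CSS, 4.73, 4.04 and 1.15 in CFA, and 1.01, 1.38 and 1.08 in CSA. CFA mouse 74 was the low library of its group for Wif1, as it was for Sost and Sfrp2, and its sum of 7 SMC markers, 5393, was the lowest of CFA; the part of the markers in these values was not tested. The log2 difference of Wif1 between CSA and CFA was -1.23 ± 0.46, and -1.84 without that mouse.

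Sfrp5 and Dkk2 were low throughout. Sfrp5 (chr19:42197971-42202252 on the minus strand), a Frizzled-related protein known as an adipokine, was at 5.89, 1.77 and 2.01 FPKM in CFS, 0.538, 1.19 and 0.339 in CSS, 0.290, 1.51 and 1.56 in CFA, and 1.61, 1.81 and 2.23 in CSA. CFS mouse 68 was the high library and CFA mouse 71 the low one. The log2 difference between CSA and CFA was 0.95 ± 0.63 (SE), and 0.26 without CFA mouse 71. Dkk2 (chr3:132085292-132180304 on the plus strand), which binds LRP6, ranged from 0.202 to 1.22 FPKM over the 12 libraries, close to the filter, and its groups overlapped between CSA and CFA at a log2 difference of 0.37 ± 0.47, which was 0.11 without CFA mouse 71 and 0.63 without CFA mouse 74.

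**Figure D2:**
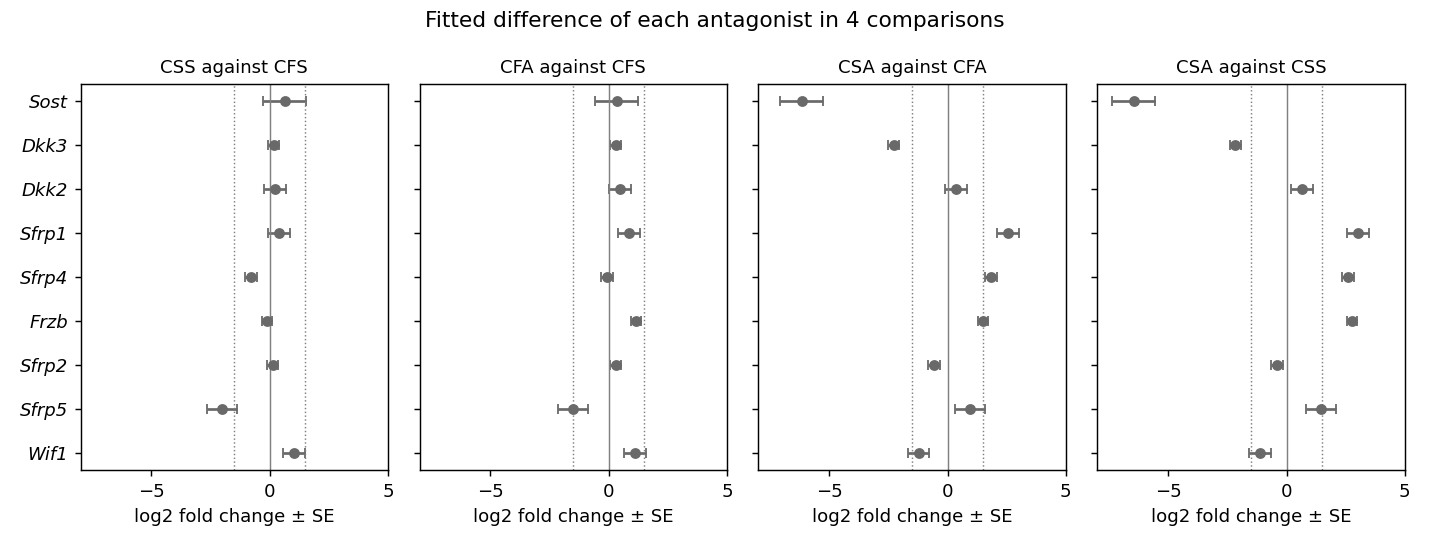
Fitted log2 fold change of each antagonist in 4 comparisons, with bars of ± 1 SE from limma on log2(FPKM + 0.1). Dotted lines mark the limit of 1.5 in each direction. Sost is at -6.17 and Sfrp1 at 2.56 in CSA against CFA, whereas no member passed both limits in CSS against CFS or in CFA against CFS.

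A gene was called where its adjusted p was below 0.05 and it differed by more than 1.5 on the log2 scale. By this rule 5 of the 9 members were called between CSA and CFA, 3 higher and 2 lower. Of all 14676 genes tested, 17.2% were called in that comparison, 8.95% higher and 8.27% lower. Over the 8 members that reach the filter without CSA, the median log2 difference was 0.19, and over all genes that do so -0.10. Between CSA and CSS 5 members were called, 3 higher and 2 lower, against 20.3% of all genes, 10.9% higher and 9.36% lower. The CSA and CFA values did not overlap for 4 members in the higher and 2 in the lower direction, against 23.4% and 25.1% of all genes, and the CSA and CSS values for 5 and 3, against 26.3% and 29.1%. The genotype effect was called as differing between Ang II and saline for 7 members (4 to 6 when each mouse was left out), against 15.2% of all genes. These comparisons share the CSA libraries, and the members were chosen with CSA against CFA in view, so nothing is read from these counts.

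Under saline, the comparison of genotypes left every member uncalled. Of the 9 members, 0 were called between CSS and CFS, against 0.0136% of all genes tested, and 3 had an unadjusted p under 0.05 in limma, against 6.3% of all genes. Sfrp5 was lower in CSS at a log2 fold change of -2.01 ± 0.63 (SE, limma adjusted p = 0.545), and its values did not overlap between the groups. This log2 fold change was -2.44 to -1.48 when each mouse was left out and -2.01 to -1.22 over the other alternatives. The summed FPKM of 6 adipocyte markers was 64.8 to 249.8 in CSS and 183 to 647 in CFS, with overlapping ranges. It was highest in CFS mouse 70 and not in CFS mouse 68, the high library for Sfrp5. CFS mouse 68 was also among the libraries that stood apart in skeletal muscle transcripts. Without it the log2 fold change of Sfrp5 was -1.48, and the part of those transcripts was not tested. Of the 6 adipocyte markers, 0 were called and 1 had an unadjusted p under 0.05 in limma, with log2 fold changes of -1.05 to -2.52, and their part in the Sfrp5 value was not tested. Sfrp4 was lower at -0.81 ± 0.26 (adjusted p = 0.562), with all 3 CSS values below all 3 CFS values. The summed FPKM of 7 fibroblast markers was also lower, at 1245 to 1445 in CSS and 1585 to 1979 in CFS. Of these, Pdgfra, Dpt, Dcn and Col1a1 were lower without overlap, whereas Lum, Pi16 and Cd248 overlapped. Their part in the Sfrp4 value was not tested. Wif1 was higher at 1.03 ± 0.46 (adjusted p = 0.790), again without overlap. Sost was higher in every CSS than in every CFS library, with a mean of 285 ± 43.8 against 186 ± 41.3, but its log2 fold change of 0.63 ± 0.90 did not pass the test (adjusted p = 1). That SE carries the spread of the CSA libraries, since all 12 libraries share the fit. Ranges without overlap were found for 3 members in the higher and 2 in the lower direction, against 11.1% and 9.31% of all genes tested. Without CFS mouse 69 the log2 fold change of Sfrp1 turned from 0.39 to -0.32.

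Ang II alone, in CCN2fl/fl mice, likewise left 0 of the 9 members called between CFA and CFS, against 0.0273% of all genes. 3 members had an unadjusted p under 0.05 in limma, against 9.42% of all genes. Frzb was the clearest, at a log2 fold change of 1.15 ± 0.21 (SE, limma adjusted p = 0.0969), higher in 3 of 3 CFA mice than in any CFS mouse. Over the alternatives its adjusted p ranged from 0.0326 to 0.324. The summed FPKM of 5 cartilage markers moved with Frzb, at 6.76 to 8.88 in CFS, 14.4 to 20.4 in CFA and 30.6 to 52.9 in CSA, but it was also higher in CSS, at 16.5 to 19.3, where Frzb was not. Most of the sum was Comp, a matrix gene, at a log2 fold change of 1.13 ± 0.21 between CFA and CFS (limma adjusted p = 0.0969). Acan, the aggrecan gene, and Sox9, a cartilage transcription factor, were also higher in every CFA than in every CFS library, at 0.872 to 4.98 against 0.537 to 0.629 FPKM and 0.809 to 0.910 against 0.351 to 0.672, and 0 of the 3 tested markers were called while 3 had an unadjusted p under 0.05 in limma. The cartilage collagen gene Col2a1 did not exceed 0.0646 FPKM outside CSA and was at 0.621 to 1.503 in CSA, and Matn1 did not exceed 0.118 in any library. The summed FPKM of 7 fibroblast markers was 1585 to 1979 in CFS and 1245 to 1445 in CSS. It was higher, as Frzb was, at 2256 to 2481 in CFA and 3603 to 4300 in CSA. Of this list, Col1a1 (743 to 1023 in CFS, 1383 to 1512 in CFA) and Lum (105 to 141, 166 to 231) were higher in CFA without overlap. The rest of the list overlapped between CFA and CFS. The part of the cartilage and fibroblast markers in the level of Frzb was not tested. Wif1 was higher at 1.12 ± 0.46 (adjusted p = 0.473) and Sfrp5 lower at -1.501 ± 0.63 (adjusted p = 0.481), which was -0.81 without CFA mouse 71 and -0.97 without CFS mouse 68. Without CFA mouse 74, Wif1 was at 1.74 with an adjusted p of 0.0334. Sost differed by 0.34 ± 0.90 (adjusted p = 0.968, and 0.057 to 0.80 when each mouse was left out), with overlapping ranges of 156 to 233 and 122 to 340.2 FPKM. The CFA and CFS values did not overlap for 1 member in the higher and 1 in the lower direction, against 9.44% and 10.8% of all genes.

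Added over the 9 genes, the antagonist transcripts overlapped in level between CSA and CFA, while their make-up differed. The sum of FPKM was 549 ± 57.0 (SD, n = 3) in CFS, 659 ± 40.2 in CSS, 714 ± 209 in CFA and 671 ± 67.6 in CSA, and the CSA range of 612 to 745 lay inside the CFA range of 495 to 911. FPKM is per length, so these levels can be set beside each other. Sost made up 33.6% ± 3.95 of the sum in CFS, 43.1% ± 4.26 in CSS, 34.1% ± 8.36 in CFA and 0.880% ± 0.729 in CSA. Sfrp1 made up 6.43% ± 4.11, 5.60% ± 1.15, 7.73% ± 3.31 and 44.7% ± 3.54 in the same order. By group means, the order of the leading 3 thus went from Sost, Sfrp2 and Dkk3 in CFA to Sfrp1, Sfrp2 and Sfrp4 in CSA, in which Sfrp2 kept 20.2% ± 6.71 of the sum and Sfrp4 reached 18.5% ± 4.61. The Frzb share was 3.59% ± 0.619 in CFA and 10.6% ± 0.909 in CSA, and the Dkk3 share 21.2% ± 4.63 and 4.57% ± 1.297. In CFA mouse 74 the order was Sfrp2 (27.3%), Dkk3 (26.0%) and Sost (24.6%). Sfrp2 and Sfrp4 in CSA did not differ beyond their spread, since their shares overlapped between mice.

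**Figure D3:**
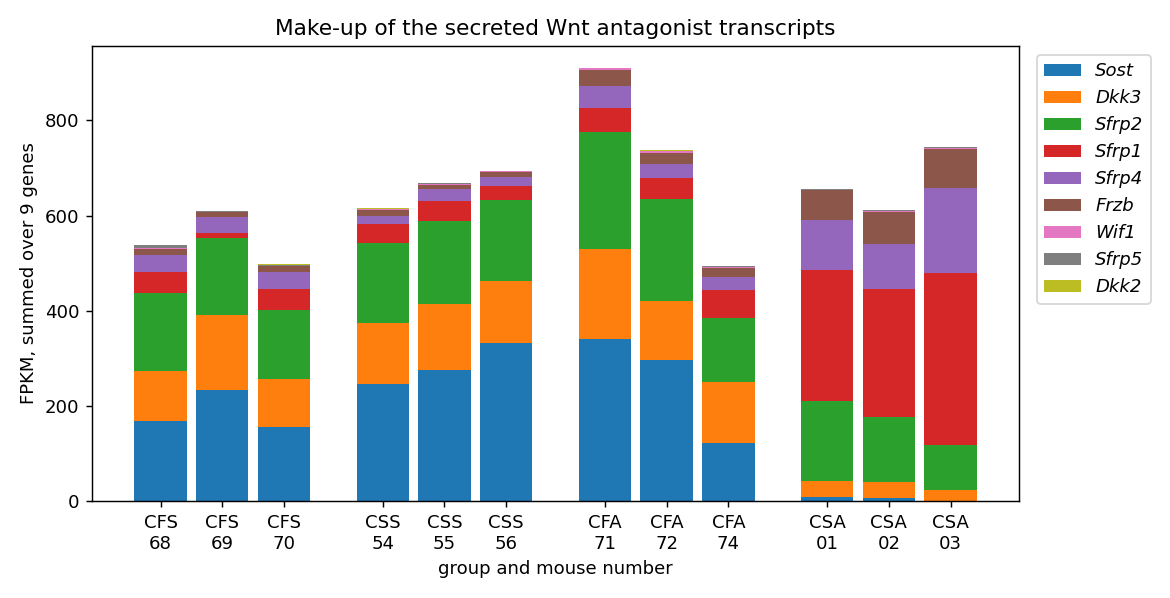
Summed FPKM of the 9 antagonists in each of the 12 mice, stacked by gene. The bars of CSA reach 612 to 745 FPKM, within the range of CFA, while Sost makes up 0.880% of the CSA sum on average and Sfrp1 44.7%.

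Marker sums of several cell types also differed between CSA and CFA, in both directions. The summed FPKM of 7 SMC markers was 8040 to 10114 in CFS, 7597 to 8591 in CSS, 5393 to 8245 in CFA and 788 to 933 in CSA, and 7 of 7 were called lower in CSA than in CFA, at a median log2 fold change of -2.86. Between CSS and CFS 0 of the 7 were called, and 0 had an unadjusted p under 0.05 in limma. Of all genes tested, 8.27% were called lower and 8.95% higher in CSA than in CFA. Macrophage markers summed to 233 to 459 in CFA and 1496 to 1703 in CSA, with 6 of 7 called higher, and neutrophil markers to 10.6 to 26.5 and 485 to 525, with 3 called higher of 3 that reached the filter without CSA. Ly6g, of the neutrophil list, was below the filter, at no more than 0.390 FPKM in CFA and 0.680 in CSA. Fibroblast markers summed to 2256 to 2481 in CFA and 3603 to 4300 in CSA, with 0 of 7 called and 4 at an unadjusted p under 0.05 in limma. These 4 went in both directions, with log2 fold changes of 0.96 ± 0.16 for Col1a1 and 1.44 ± 0.20 for Lum, both matrix genes, and -1.13 ± 0.17 for Dpt and -1.17 ± 0.25 for Pi16, so the higher sum is mostly Col1a1 (1383 to 1512 in CFA and 2561 to 3262 in CSA). In such CCN2SMCΔ aortas the paper reports strong collagen I staining in cells of the remodeled wall that held little or no αSMA, the Acta2 protein. Col1a1 thus need not mark the adventitia here. Endothelial markers summed to 178 to 382 in CFA and 97.2 to 126 in CSA, with 2 of 5 called lower. Kdr, of the same list, was at 2.45 to 5.36 FPKM in CFA and 5.37 to 8.69 in CSA and was not called. Schwann cell markers summed to 10.7 to 13.6 in CFA and 15.1 to 18.6 in CSA, with 0 of 4 called and 2 at an unadjusted p under 0.05 in limma. Adipocyte markers summed to 89.7 to 258 in CFA and 55.1 to 95.9 in CSA, with 2 of 6 called lower, Lep (leptin) and Plin1 (a lipid droplet protein), named because they make up this count. The part of these cell type markers in the levels of the antagonists was not tested.

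Bone markers were low in every library, Sost being best known from osteocytes, but did not all move alike. The summed FPKM of 10 osteoblast and osteocyte markers was 3.79 to 5.04 in CFS, 5.66 to 6.62 in CSS, 4.66 to 10.03 in CFA and 7.73 to 10.7 in CSA. The markers named here were chosen after their values were seen. Mepe, an osteocyte matrix gene, was listed at 0 in all 12 libraries, and Dmp1, which marks osteocytes, did not exceed 0.567 FPKM. Phex, a peptidase gene of osteoblasts and osteocytes, was, like Sost, lower in every CSA library than in all 9 others, at 1.05 to 1.21 FPKM in CFS, 2.24 to 2.92 in CSS, 1.09 to 1.305 in CFA and 0.0300 to 0.0705 in CSA. It was called lower in CSA than in CFA (log2 fold change -3.14 ± 0.25 SE, adjusted p = 4.95e-06, limma), and with a pseudocount of 1 its log2 fold change was -1.06, under the fold limit. Alpl, the alkaline phosphatase gene, was the most abundant of the list in CFA, at 2.11 to 7.51 FPKM there and 3.49 to 4.42 in CSA, and was not called. The other tested markers, Fgf23 and Runx2, were at no more than 0.130 and 0.443 FPKM outside CSA and passed the filter only with the CSA libraries, where they reached 1.04 to 3.69 and 2.19 to 3.10 FPKM, so no count of calls is given for the list. The part of these markers in the level of Sost was not tested.

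Set against the SMC markers, every CSA ratio of Sost lay below those of all other libraries for most of the markers but not for Myh11. Expressed per 1000 FPKM of the SMC marker sum, which is mostly Acta2, Sost was 19.7, 23.0 and 19.5 in CFS, 28.8, 36.2 and 38.7 in CSS, 45.5, 36.1 and 22.6 in CFA, and 10.7, 7.68 and 0.481 in CSA. Taken per marker, all CSA ratios lay below all 9 others for 6 of the 7 markers. The margin was narrow for 3 of these, since the highest CSA ratio, of mouse 01, and the lowest of the other 9 were 273 and 280.4 for Cnn1, 4536 and 4812 for Myocd, and 667 and 730.2 for Lmod1. The exception was Myh11, smooth muscle myosin heavy chain, whose promoter drives the Cre. Per 1000 FPKM of Myh11, Sost was 174, 196 and 166 in CFS, 255, 329 and 339 in CSS, 464, 428 and 168 in CFA, and 263, 190.0 and 8.14 in CSA. CSA mice 01 and 02 thus lay within the range of the other groups on this ratio, and CSA mouse 03 lay below it. These ratios were chosen after the values were seen, and no test was made on them.

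**Figure D4:**
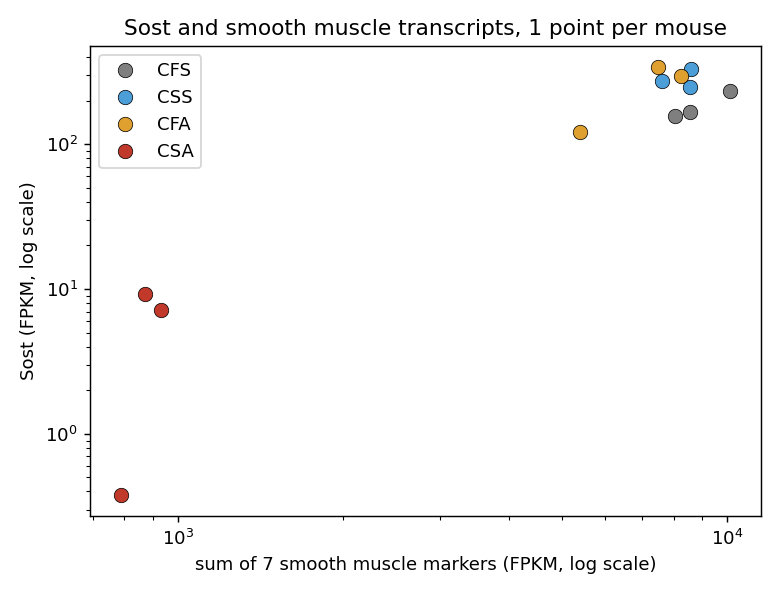
Sost against the summed FPKM of 7 SMC markers, both on log axes, with 1 point per mouse coloured by group. The 3 CSA mice lie apart, at marker sums of 788 to 933 and Sost of 0.379 to 9.32 FPKM, from the other 9 mice at sums of 5393 to 10114.

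The genes whose levels followed Sost most closely over the 12 libraries, by Pearson's r of log2(FPKM + 0.1) among 5846 genes with a group mean of at least 10 FPKM, were Mfge8 (r = 0.996), Cd151 (0.995), Zfp651 (0.994), Hspg2 (0.994) and Osbpl5 (0.993). Mfge8 encodes lactadherin, the source of medin in the arterial wall, and Hspg2 encodes perlecan, a basement membrane proteoglycan. All 5 were lower in CSA than in CFA by less than Sost, with log2 differences of -2.40 for Mfge8, -1.16 for Cd151, -1.75 for Zfp651, -1.73 for Hspg2 and -1.42 for Osbpl5. Among the members, r with Sost was 0.96 for Dkk3, 0.76 for Sfrp2 and 0.53 for Wif1, and negative for Sfrp5 (-0.36), Dkk2 (-0.54), Frzb (-0.84), Sfrp1 (-0.88) and Sfrp4 (-0.91). These correlations are descriptions over 4 groups of libraries in which CSA stands apart, and the points share that split.

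The rest of the Wnt pathway was examined in 6 lists, and under saline or with Ang II in CCN2fl/fl mice 0 of the 58 genes tested were called, against 0.0136% and 0.0273% of all genes. In each of these comparisons 4 of the 58 had an unadjusted p under 0.05 in limma, against 6.3% and 9.42% of all genes. Of the 58, 4 passed the filter only with the CSA libraries and are left out of the counts and medians between CSA and CFA. Of the other 54, 14 were called between CSA and CFA, against 13.6% of the 13470 genes that reach the filter without CSA. Most pathway genes named below were picked for their log2 fold change in this comparison. Their p-values between CSA and CFA, adjusted over all genes tested, thus describe picked genes. Among 8 other antagonists listed, only Apcdd1, a membrane-anchored Wnt inhibitor and so not a secreted one, passed the filter. Apcdd1 fell by 2.11 on the log2 scale (SE 0.27, adjusted p = 0.00012, limma), from 12.6, 11.9 and 10.4 FPKM in CFA to 3.20, 3.74 and 1.49 in CSA. Dkk1, a classical LRP6 antagonist looked up outside the rule for named genes, was below the filter, at no more than 0.311 FPKM in any library.

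Among 19 Wnt ligands 5 reached the filter without CSA, of which 0 were called higher and 3 lower in CSA than in CFA, with a median log2 fold change of -1.74. Wnt16 fell the most, from 26.8, 23.6 and 14.8 FPKM in CFA to 5.99, 5.56 and 2.08 in CSA (log2 fold change -2.33 ± 0.35 SE, adjusted p = 0.000356, limma). Wnt2b fell from 5.06, 4.72 and 5.30 FPKM to 1.51, 1.38 and 1.06 (-1.87 ± 0.25, adjusted p = 0.000137). The third was Wnt5b, named because it completes this count of called ligands (-1.74 ± 0.64, adjusted p = 0.0494). It was at 3.49, 2.66 and 2.15 FPKM in CFA and 1.54, 1.55 and 0.123 in CSA, and at a log2 fold change of -0.78 without CSA mouse 03. Its call did not hold in 16 of 20 alternatives, among them leaving out any 1 mouse of CFS, CSS or CFA, and its adjusted p ranged from 0.0237 to 0.154 (limma). The count of ligands called lower was 2 to 3 when each mouse was left out and 1 to 4 over the other alternatives. Of 5 R-spondins and Norrin, secreted activators of the pathway, 3 reached the filter without CSA, and 1 rose while 1 fell. Rspo3, which amplifies Wnt signals through LGR receptors, rose from 1.17, 1.20 and 1.14 FPKM to 3.32, 4.47 and 7.98 (1.98 ± 0.32, adjusted p = 0.000557). Ndp, which encodes Norrin, fell from 1.35, 0.583 and 1.85 FPKM to 0.229, 0.146 and 0 (-2.63 ± 0.55, adjusted p = 0.00295), and with a pseudocount of 1 its log2 fold change was -0.97.

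Of 23 receptors and co-receptors 18 reached the filter without CSA, with 1 called higher, 2 lower and 15 not called, at a median log2 fold change of -0.56. The count called lower was 2 to 5 when each mouse was left out, highest without CSA mouse 01, and 2 to 7 over the other alternatives. Lgr6, an R-spondin receptor, fell from 33.5, 21.3 and 27.5 FPKM in CFA to 2.37, 1.98 and 1.73 in CSA (log2 fold change -3.68 ± 0.19 SE, adjusted p = 5.24e-07, limma), the largest change among the tested genes of the 6 lists. Fzd8, a Frizzled receptor, fell from 26.1, 23.6 and 30.7 FPKM to 4.89, 6.78 and 4.37 (-2.32 ± 0.21, adjusted p = 1.25e-05). The gene called higher was Ror2 (1.65 ± 0.30, adjusted p = 0.00122), a co-receptor of the branch that does not use β-catenin, named here after its values were seen. It was under the fold limit with a pseudocount of 1 (1.19) and without CFA mouse 71 (1.499). Ptk7, another co-receptor of that branch, is likewise named outside the rule for named genes. It passed the filter only with the CSA libraries and is given as values. These were no more than 0.623 FPKM outside CSA and 3.71, 3.52 and 1.47 in CSA. The sclerostin-binding co-receptors Lrp5 and Lrp6, also looked up afterwards, were at -1.498 ± 0.18 (adjusted p = 8.01e-05), a fraction under the fold limit, and -0.40 ± 0.23 (adjusted p = 0.182). Lrp5 was called in 3 of 21 alternatives, among them without CFA mouse 72 (-1.68) and without CSA mouse 01 (-1.66). Lrp6 was at -0.71 without CSA mouse 03 (limma adjusted p = 0.00111) and at -0.21 without CSA mouse 02.

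Inside the cell, 20 of 21 listed pathway genes were tested, and 1 was called higher and 1 lower at a median of -0.38. Tcf7, a TCF factor that is also abundant in lymphocytes, rose from 1.08, 0.772 and 0.701 FPKM in CFA to 6.32, 4.58 and 6.66 in CSA (log2 fold change 2.65 ± 0.28 SE, adjusted p = 2.76e-05, limma). Lymphocyte markers summed to 0.896 to 1.98 FPKM in CFA and 5.998 to 8.77 in CSA, and the 3 of 5 that were tested passed the filter only with the CSA libraries; their part in the Tcf7 level was not tested. Tcf7l1, a TCF factor that mostly represses, fell from 19.9, 19.5 and 21.8 FPKM to 7.88, 7.68 and 4.56 (-1.63 ± 0.20, adjusted p = 8.46e-05), and was at -1.38 without CSA mouse 03.

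Of 9 target and feedback genes 7 were tested, with 1 called higher and 2 lower, at a median log2 fold change of -0.02. Nkd1, a feedback inhibitor that acts on Dishevelled, fell from 30.6, 22.04 and 28.9 FPKM in CFA to 4.94, 4.90 and 1.98 in CSA (-2.85 ± 0.31 SE, adjusted p = 4.08e-05, limma). Tnfrsf19, a receptor gene induced by Wnt signals, fell from 0.775, 0.487 and 1.51 FPKM to 0.187, 0.109 and 0 (-2.37 ± 0.52, adjusted p = 0.00397), values close to the filter, and with a pseudocount of 1 its log2 fold change was -0.78. The gene called higher was Myc (1.83 ± 0.31, adjusted p = 0.000822), named because it completes this count and induced by many other signals. Axin2, looked up outside the rule for named genes as the most widely used readout of β-catenin activity, was 1.24, 1.04 and 1.23 FPKM in CFA and 1.25, 0.976 and 1.26 in CSA (-0.02 ± 0.24, adjusted p = 0.961).

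**Figure D5:**
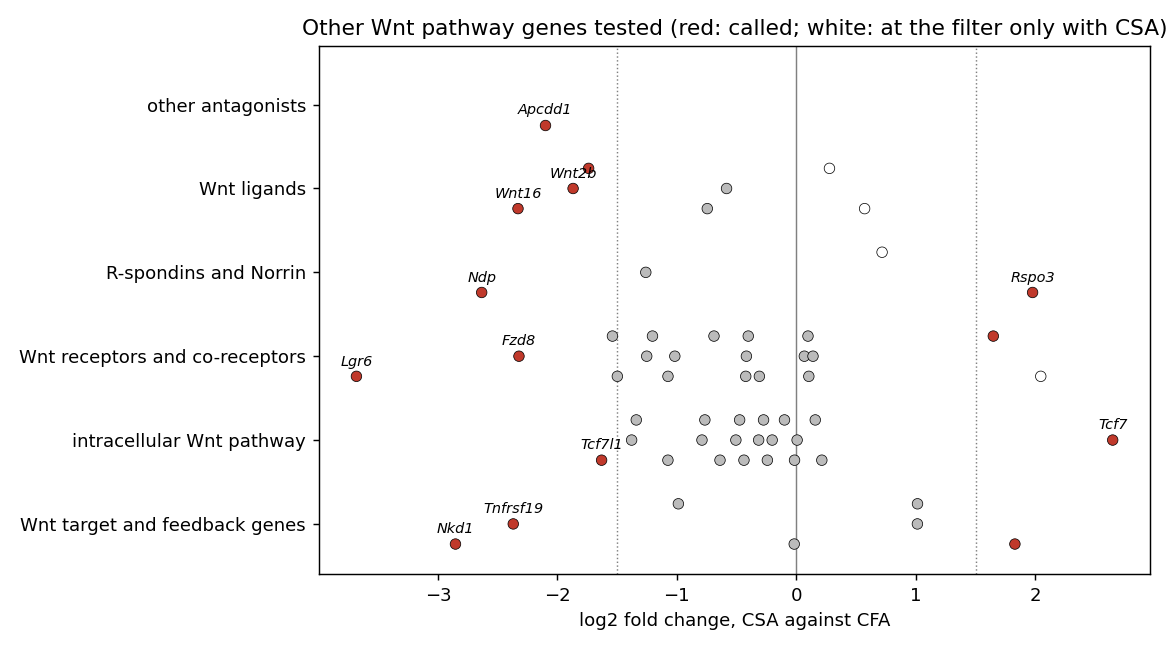
Log2 fold change between CSA and CFA of the tested genes of 6 Wnt pathway lists, 1 point per gene, with called genes in red, genes that passed the filter only with the CSA libraries in white and the fold limit of 1.5 as dotted lines. Lgr6 at -3.68 and Tcf7 at 2.65 are the most distant points on either side, and most points lie between the lines.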

How the data were processed

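RNA-Seq was made by the study from abdominal aortas of 12 male mice, 3 in each of 4 groups, and the group of each column was taken from the labels. The authors deposited FPKM per gene and mouse, with no pooling and 0 columns left unused here. The submitters' processing notes name HISAT2 2.0.5, StringTie 1.3.3b, featureCounts 1.5.0-p3 and mm10. Gene symbols and exon lengths came from GENCODE. With those lengths, 98.05% to 98.53% of values under 100 fragments came out whole within 0.05, and the recovered fragments give the depth. The values the authors deposited were further scaled between libraries in a way not given in the sources used here. A value of 0 allows up to 3 fragments, which covers counting error only.

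Values were tested as log2(FPKM + 0.1) with limma 3.58.1 in R 4.3.3 (lmFit, then trended, robust eBayes), fitting all 12 libraries with a mean for each group and no covariate. This replaces the study's DEG-Seq, which takes counts. A gene was tested where 3 or more libraries reached 1 FPKM, which gave 14676, among them 256 features that carry no Ensembl identifier. The Benjamini-Hochberg method was applied across all of these. A call needed an adjusted p below 0.05 and a difference beyond 1.5 on the log2 scale, which is the fold limit of the study. SE and fold changes are on the log2(FPKM + 0.1) scale, which understates the change of low genes. The test was first checked on simulated data. Each library is 1 mouse, and p-values measure the spread between these mice.

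The 9 antagonists, the 6 pathway lists and the marker lists were chosen with earlier results of these data known. The text names the members, the 2 genes of each pathway list with the largest log2 fold change between CSA and CFA, the 5 genes most like Sost, and Ccn2. Pathway genes named outside this rule are said to be so. Single genes of the marker lists are also named outside this rule. Alternatives changed the pseudocount, the filter, the limits, the scaling, the libraries fitted and the moderation, or left out each mouse in turn. Promoters came from RefSeq (GRCm38.p6), compatible with mm10. Tables used pandas 2.3.3 and numpy 2.4.6 under Python 3.11.15, and figures used matplotlib 3.10.9.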

Additional observations from a re-analysis of the deposited data

Results flagged for a closer look

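The genotype effect differed between Ang II and saline for several of the genes described, by the interaction term of the same limma fit, which is (CSA against CFA) less (CSS against CFS). For the antagonists these differences share the CSA libraries with which they were chosen and are given as values without a p. On the log2 scale they were -6.80 for Sost, -2.45 for Dkk3 and -2.26 for Wif1, whose genotype effects were more negative under Ang II. They were 2.17 for Sfrp1, 2.66 for Sfrp4, 2.97 for Sfrp5 and 1.64 for Frzb, whose genotype effects were more positive under Ang II. The Sfrp5 value rests on libraries near the filter and was 1.73 with a pseudocount of 1.

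Of the other Wnt pathway genes named, the difference between the genotype effects was -3.91 for the R-spondin receptor Lgr6, -2.79 for the feedback inhibitor Nkd1, -2.75 for the ligand Wnt16 and 2.24 for the factor Tcf7 (interaction adjusted p = 1.38e-05, 0.00112, 0.00234 and 0.00187, limma). It was -1.79 for Tcf7l1, -1.70 for Fzd8, -1.57 for Wnt2b and -1.54 for Apcdd1 (adjusted p = 0.00106, 0.002, 0.00691 and 0.0128). It was 1.32 for Rspo3, -2.21 for Ndp and -1.36 for Tnfrsf19, which did not pass the test (adjusted p = 0.0528, 0.0595 and 0.209). SMC markers showed the same kind of difference, with 7 of 7 called and a median of -3.16, and their part in these values was not tested. The pathway genes were named for their change between CSA and CFA, which is part of the interaction. Their interaction p-values thus describe genes picked with the same libraries, and nothing further is read from them.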

How the results depend on the processing

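Groups of 3 limit the precision, CSA mouse 03 sets much of the spread of Sost, and the scaling of the deposited FPKM cannot be undone. Of the 9 antagonists, 4 or 5 were called between CSA and CFA and 5 or 6 between CSA and CSS under every alternative run. Over the same alternatives the genes called of all tested ranged from 1095 to 5978 and from 1272 to 6781 (2528 and 2977 as reported). As above, nothing is read from these counts of members. Sost was at -4.80 (CSA against CFA) and -5.10 (CSA against CSS) without CSA mouse 03. Between CSS and CFS, and between CFA and CFS, the count of 0 became 1, Sfrp5, with an unadjusted p and the fold limit. Leaving out each mouse gave 0 to 1 between CFA and CFS, where Wif1 was called without CFA mouse 74. For the interaction, 7 called became 4 with no filter on low values and 4 to 6 when each mouse was left out, with 4 without CSS mouse 54, CSS mouse 56 or CFA mouse 71. The direction turned in small differences only. Between CSS and CFS, leaving out each mouse gave -0.33 to 0.62 for Dkk2 and -0.32 to 0.75 for Sfrp1, both lowest without CFS mouse 69, and Frzb was at 0.050 without CFS mouse 68 and CSS mouse 55, an alternative chosen after seeing the data. Between CFA and CFS, leaving out each mouse gave -0.039 to 0.91 for Dkk2, lowest without CFS mouse 69, and -0.29 to 0.081 for Sfrp4, above 0 without CFA mouse 72 or 74. For Ccn2 it gave -0.048 to 0.56, below 0 without CFS mouse 70. A pseudocount of 1 put Frzb (1.48), Wnt2b (-1.38), Wnt5b (-0.95), Ndp (-0.97), Rspo3 (1.46), Ror2 (1.19), Tnfrsf19 (-0.78), Phex (-1.06) and Lep (-1.42) under the fold limit. A minimum mean of 5 FPKM left no value for Dkk2, Sfrp5 and Wif1. For the interaction, the genes called of all tested ranged from 1078 to 3877 over all alternatives (2231 as reported). They ranged from 0 to 132 between CSS and CFS (2) and from 0 to 243 between CFA and CFS (4). The cause of these shifts was not tested. No paired analysis was possible because the groups share no mouse numbers.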
